A study of Homo sapiens with 24 samples.

Results

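10 immediate early genes were followed across the PRO-seq libraries of T47D cells carrying a degradable TRPS1 protein. They were *FOS*, *FOSB*, *FOSL2*, *JUN*, *JUNB*, *EGR1*, *ATF3*, *IER2*, *DUSP1* and *KLF6*, taken by symbol as 10 of the 60605 genes in the count table. All 10 passed the filter on low counts, as did 22326 genes in all. The levels were compared between replicate numbers, between treatments and between clones.

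Immediate early genes are transcribed within minutes of a growth factor, stress or mechanical signal, before any new protein is needed. Kinase cascades act on factors already bound at their promoters, among them serum response factor with its ELK partners and CREB. The proteins made, many of them AP-1 and zinc finger factors, then act on later genes, while phosphatases and RNA decay factors end the burst. In breast epithelial cells AP-1 factors act beside the estrogen receptor.

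T47D is an estrogen receptor-positive luminal breast cancer line. Each of Clones 28, 35 and 39 grew from a single cell in which a degron tag had been inserted at *TRPS1*, so a clone is 1 line and clone differences cannot be told apart from differences that arose during cloning. The methods state that some genomic copies of *TRPS1* were knocked out and that only tagged protein was made, in all groups including controls. Cells grew with serum and insulin and received 0.1% v/v DMSO or 100 nM dTAG-13 in DMSO for 90 min. dTAG-13 joins the tag to the cereblon ubiquitin ligase. The 3 clones, 2 treatments and 4 replicate numbers gave 24 libraries. Per the labels, the 4 replicates were harvested at separate times within 1 day, with both treatments harvested together. The order of those times, and whether clones shared them, is not given in the sources used here. A replicate number is therefore read below as a collection, with no order, and nothing in the labels says that collections came from separate cultures started independently.

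PRO-seq maps engaged RNA polymerase by labelling nascent RNA in permeabilised cells, so a level is ongoing transcription over the gene span and not mRNA. Library totals ran from 3226718 to 9575803 counts, with a median of 5042122. Levels are CPM, reads scaled to a common library total with TMM scaling, whose factors ran from 0.968 to 1.00 in numbers 1 and 2 and from 0.999 to 1.03 in numbers 3 and 4. Nascent *TRPS1* had a median of 6815 CPM in 12 DMSO libraries (5183 to 8747) and 7742 CPM in 12 dTAG-13 libraries (6304 to 9296), a log2 fold change of 0.19 (SE 0.083, adjusted p = 0.733 by edgeR's quasi-likelihood test). The drug acts on the protein, so this level checks no depletion. All 8 luminal markers passed the filter, with summed levels of 3565 to 5877 CPM. The basal list summed to 16.0 to 27.5 CPM, the fibroblast list to 8.10 to 17.5 CPM and the haematopoietic list to 12.5 to 26.5 CPM in single libraries. No marker was at 0 throughout, and *KRT5*, *KRT14*, *COL1A2*, *DCN*, *PDGFRB* and *CD3E* did not pass the filter.

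Sequence upstream of the start is shown for 4 members that varied between collections. They were taken because *FOS* and *EGR1* on the one hand and *JUN* and *ATF3* on the other had opposite signs in number 1. *ATF3* did not pass in number 1 alone (adjusted p = 0.158 by edgeR's quasi-likelihood test). The letters are the gene's own strand, 5′ to 3′, of the RefSeq GRCh38.p14 window of 250 bases upstream, with any part inside the GENCODE gene span left off. They lie at chr14:75278578-75278825 (plus strand, *FOS*), chr5:138465229-138465478 (plus, *EGR1*), chr1:58784049-58784297 (minus, *JUN*) and chr1:212565157-212565333 (plus, *ATF3*, the first of its 2 windows). The window of *FOSL2* lay wholly inside its GENCODE span and is not shown. Capitals mark matches on either strand to TGACG (the core of the cAMP response element), to TGACATCA (an AP-1 and ATF element) or to the CArG box bound by serum response factor.
FOS: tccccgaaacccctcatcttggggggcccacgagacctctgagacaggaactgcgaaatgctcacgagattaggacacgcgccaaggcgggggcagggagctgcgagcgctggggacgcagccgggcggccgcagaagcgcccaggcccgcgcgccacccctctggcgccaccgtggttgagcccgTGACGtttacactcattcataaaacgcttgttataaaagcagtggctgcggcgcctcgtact
EGR1: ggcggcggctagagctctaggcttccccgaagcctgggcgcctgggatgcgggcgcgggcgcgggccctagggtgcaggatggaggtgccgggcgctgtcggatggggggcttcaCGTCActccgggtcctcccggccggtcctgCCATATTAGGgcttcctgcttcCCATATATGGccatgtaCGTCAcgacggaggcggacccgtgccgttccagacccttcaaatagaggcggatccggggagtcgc
JUN: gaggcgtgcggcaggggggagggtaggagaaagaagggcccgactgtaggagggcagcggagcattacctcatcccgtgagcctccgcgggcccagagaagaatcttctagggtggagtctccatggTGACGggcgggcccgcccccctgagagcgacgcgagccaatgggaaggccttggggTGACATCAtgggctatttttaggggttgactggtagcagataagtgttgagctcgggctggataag
ATF3: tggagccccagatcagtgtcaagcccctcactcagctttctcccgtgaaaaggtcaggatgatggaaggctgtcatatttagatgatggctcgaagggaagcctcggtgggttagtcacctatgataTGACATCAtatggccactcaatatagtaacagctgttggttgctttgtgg

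The CArG box was present in 1.16% of 35116 windows and, among 11 member windows, in that of *EGR1* alone, which held 2 matches at bases -105 to -96 and -83 to -74 from the start. TGACG was present in 21.2% of windows and in 8 of 11 member windows. TGACATCA was present in 2.37% of windows and in 3 of 11, those of *JUN* (-67 to -60), *ATF3* (-123 to -116) and *KLF6* (-172 to -165). *KLF6* had a log2 fold change of 0.01 in number 1, while *FOSL2*, with no TGACATCA in its window, was at -0.21. A link between motifs and these signs was not tested. TGANTCA, the classical AP-1 site, was present in 6.57% of windows and in 0 of 11. Both strands were searched, no match of one motif overlapped another in the windows shown, and a match is a description of letters and not of binding. The search covered 250 bases upstream, so a window without a match can belong to a gene with that element farther away.

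Transcription per length differed widely among the members. *JUNB*, an AP-1 subunit, had the highest level, 26.8 ± 2.28 CPM per kb of gene span (SD, n = 24). *IER2*, a small nuclear factor, followed at 12.2 ± 1.05 and *JUN*, the main partner of FOS proteins, at 7.92 ± 0.986 CPM per kb. The ranges of these neighbours did not overlap for *JUNB* and *IER2* or for *IER2* and *JUN*. Below them came *FOS* (6.26), *DUSP1* (5.19), *KLF6* (4.88), *FOSB* (3.03), *FOSL2* (2.11), *EGR1* (1.89) and *ATF3* (0.881 CPM per kb), and every neighbouring pair from *JUN* downward overlapped in range. Levels were divided by the whole GENCODE span, which for *ATF3* is 55444 bases. The other RefSeq window of *ATF3* (chr1:212614768-212615017) lies inside that span, so its place in the order depends on the span used. Without division by length, *JUN* (57.1 CPM), *IER2* (54.9) and *FOSL2* (52.4) had higher means than *JUNB* (49.0), whose span is the shortest at 1830 bases. In counts *EGR1* was the sparsest, with 15 to 70 reads per library, while *JUN* had 174 to 654.

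All 10 members are protein-coding genes, with positions given on hg38 from GENCODE. Some members share their span with other genes on the opposite strand. *FOSB* (chr19:45467995-45475179) lies wholly inside *ERCC1*, *JUNB* (chr19:12791486-12793315) inside *HOOK2* and *DUSP1* (chr5:172768096-172771195) inside a long noncoding RNA gene. The strand setting of the authors' counting is not given in the sources used here. Genes with at least 1000 counts that lie inside an opposite-strand gene formed 759 pairs of an inner and an outer gene. A gene inside several such spans is in several pairs. In 185 pairs (24.4%) the inner gene had more counts, which counting both strands over these spans could not give. The pair of *DUSP1* was among these, with 2006 counts against 801. Parts of *FOSL2* and *IER2* also overlap noncoding genes.

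The comparison of replicate numbers asks how far immediate early transcription varied between collections of the same cells. 5 members differed between the 4 numbers, in opposing directions. *JUN* and *FOSL2* were lower in number 1, *FOS* and *EGR1* were higher there, and *ATF3* was split between numbers 1 and 2 and numbers 3 and 4. The count was 5 of 10 members with an adjusted p under 0.1 (edgeR's quasi-likelihood F test on 12 collections, the DMSO and dTAG-13 counts of each clone and number summed), beside 36.9% of all genes tested. Against the mean of the other 3 numbers, number 1 had 2 members lower (14.4% of genes) and 2 higher (14.2%), number 2 had 1 higher (7.02%), number 3 had 2 higher (7.36%) and number 4 had 1 higher (11.3%). Between collections the members thus passed at a share near that of genes in general.

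**Figure D1:**
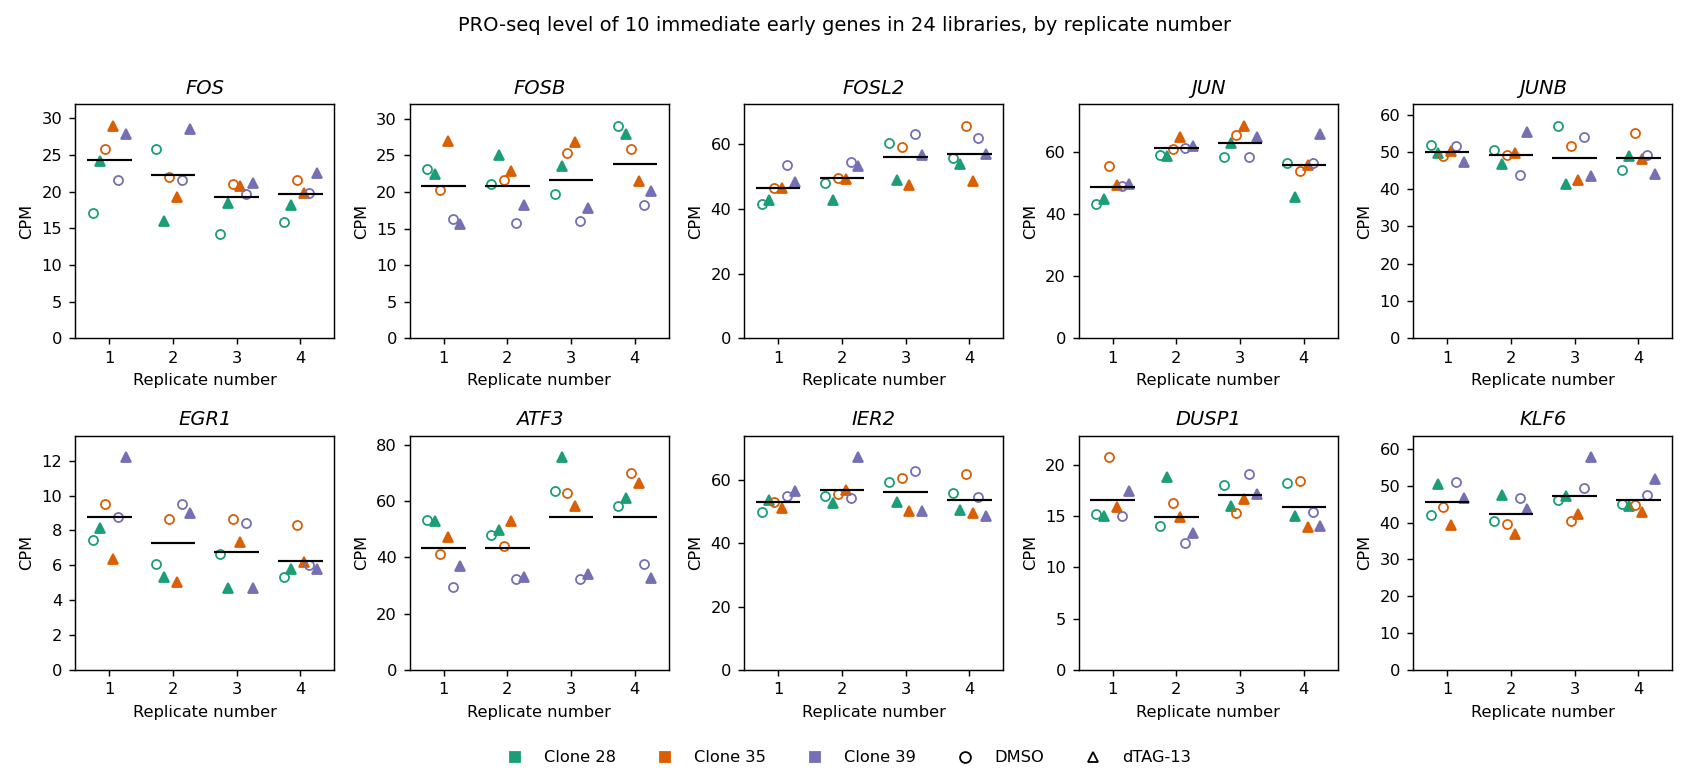
CPM of each member (vertical axes, each from 0) by replicate number in the 24 libraries. Colours are clones, open circles DMSO, filled triangles dTAG-13, and black lines the mean of 6 libraries. The 6 number 1 libraries of *JUN* sit between 43.3 and 55.3 CPM, while those of number 2 sit between 58.8 and 64.9 CPM.

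*JUN* (chr1:58776845-58784048) varied most clearly. Its level in number 1 was 43.3 to 55.3 CPM with a median of 49.2 over 6 libraries. In number 2 it was 58.8 to 64.9 CPM (median 61.2), in number 3 58.3 to 68.4 (median 63.7) and in number 4 45.4 to 65.7 (median 56.1). All 6 libraries of number 1 were below all 12 of numbers 2 and 3, and number 4 overlapped with both sides. Number 1 was lower than the mean of the other 3 by a log2 fold change of -0.30 (SE 0.048, adjusted p = 3.01e-06). Numbers 2 and 3 were higher by 0.14 (SE 0.045, adjusted p = 0.0460) and 0.21 (SE 0.044, adjusted p = 0.00105). The F test gave an adjusted p of 1.45e-06, and it passed in all 16 fits that left out 1 collection or 1 number.

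*FOSL2* (chr2:28392448-28417317), which encodes the FOS-related subunit FRA-2, had 41.5 to 53.7 CPM in number 1 (median 46.5) and 42.9 to 54.6 in number 2 (median 49.5). It had 47.4 to 63.2 CPM in number 3 (median 58.1) and 48.7 to 65.8 in number 4 (median 56.4). The library ranges overlapped, but within every clone the number 1 collection was the lowest of 4. Relative to the other numbers, number 1 was at -0.21 (SE 0.048, adjusted p = 0.00108) and number 4 at 0.19 on the log2 scale (SE 0.044, adjusted p = 0.00198). The F test gave an adjusted p of 8.76e-05 and passed in all 16 leave-out fits. After centring on the clone, *JUN* and *FOSL2* were the 2 members with all 3 number 1 collections below the other 9, which held for 6.91% of all genes.

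*FOS* (chr14:75278826-75282230), the founding AP-1 partner of JUN, had the opposite sign. Its level was 17.2 to 29.0 CPM in number 1 (median 24.9), 16.0 to 28.6 in number 2 (median 21.8), 14.2 to 21.2 in number 3 (median 20.2) and 15.9 to 22.6 in number 4 (median 19.8). Number 1 overlapped with every other number, its lowest library being Clone 28 under DMSO. The log2 fold change of number 1 against the others was 0.26 (SE 0.072, adjusted p = 0.00781), and the F test had an adjusted p of 0.00906. The call was lost when the Clone 35 collection of number 1 was left out (fold change 0.17, adjusted p = 0.150) and when number 1 was left out (0.258). With the treatments taken apart, number 1 was at 0.41 in the dTAG-13 libraries and at 0.10 in the DMSO libraries. The F test of the 4 numbers gave adjusted p of 0.0176 and 0.156 in these sets, which do not test number 1 alone. Under DMSO the mean was 21.5 CPM in number 1 and 23.1 in number 2. The treatment by number interaction for *FOS* did not pass (adjusted p = 0.506).

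*EGR1* (chr5:138465479-138469303), a zinc finger factor that answers serum response factor, had medians of 8.45, 7.35, 6.998 and 5.89 CPM in numbers 1 to 4. Its ranges overlapped, 6.36 to 12.2 CPM in number 1 against 5.30 to 8.30 in number 4. Number 1 was at 0.35 on the log2 scale (SE 0.12, adjusted p = 0.0375), while the F test was near the threshold at an adjusted p of 0.0896. It was called in 8 of 16 leave-out fits, with adjusted p from 0.0415 to 0.634.

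*ATF3* (chr1:212565334-212620777), a stress-induced ATF/CREB family factor, had medians of 44.2 and 45.9 CPM in numbers 1 and 2 and of 60.6 and 59.7 in numbers 3 and 4. The ranges overlapped, 29.3 to 53.2 CPM in number 1 and 32.2 to 75.6 in number 3, because Clone 39 stayed low in all numbers. The F test gave an adjusted p of 0.0566, with log2 fold changes of -0.21 (SE 0.094) and -0.23 (SE 0.093) for numbers 1 and 2 and of 0.22 for each of numbers 3 and 4 (SE 0.088 and 0.087). No single number passed against the other 3. The call was made in 12 of 16 leave-out fits, with adjusted p from 0.000440 to 0.133. In collections centred on the clone, Clone 35 spanned -0.30 to 0.32 and Clone 39 -0.03 to 0.06 on the log2 scale, yet the number by clone interaction did not pass (unadjusted p = 0.00159, adjusted p = 1.00). That interaction called 0 of 22326 genes, with 724 at an unadjusted p under 0.05, and without the filter on low counts *ATF3* passed at an adjusted p of 0.0402. The spread in that test came from the DMSO and dTAG-13 library of each collection, which are not independent repeats. These p-values therefore cannot show whether the pattern would differ between clones in repeated collections.

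The other 5 members did not pass. *FOSB*, an AP-1 subunit that dimerises with JUN proteins, had an adjusted p of 0.247, as did *KLF6* (chr10:3775996-3785281), a zinc finger factor of the Krüppel-like family. *IER2* (chr19:13150411-13154911) was at 0.468, *DUSP1*, a phosphatase that switches off MAP kinases, at 0.609 and *JUNB* at 0.759. Their log2 fold changes of one number against the others ran from -0.12 (*KLF6*, number 2) to 0.16 (*FOSB*, number 4). *KLF6* had all 3 number 2 collections below the other 9 after centring, which held for 2.54% of genes. *JUNB* and *IER2* were the most alike pair over the 12 centred collections, with a mean absolute difference of 0.0550 on the log2 scale, and *JUN* and *EGR1* the least alike at 0.287.

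**Figure D2:**
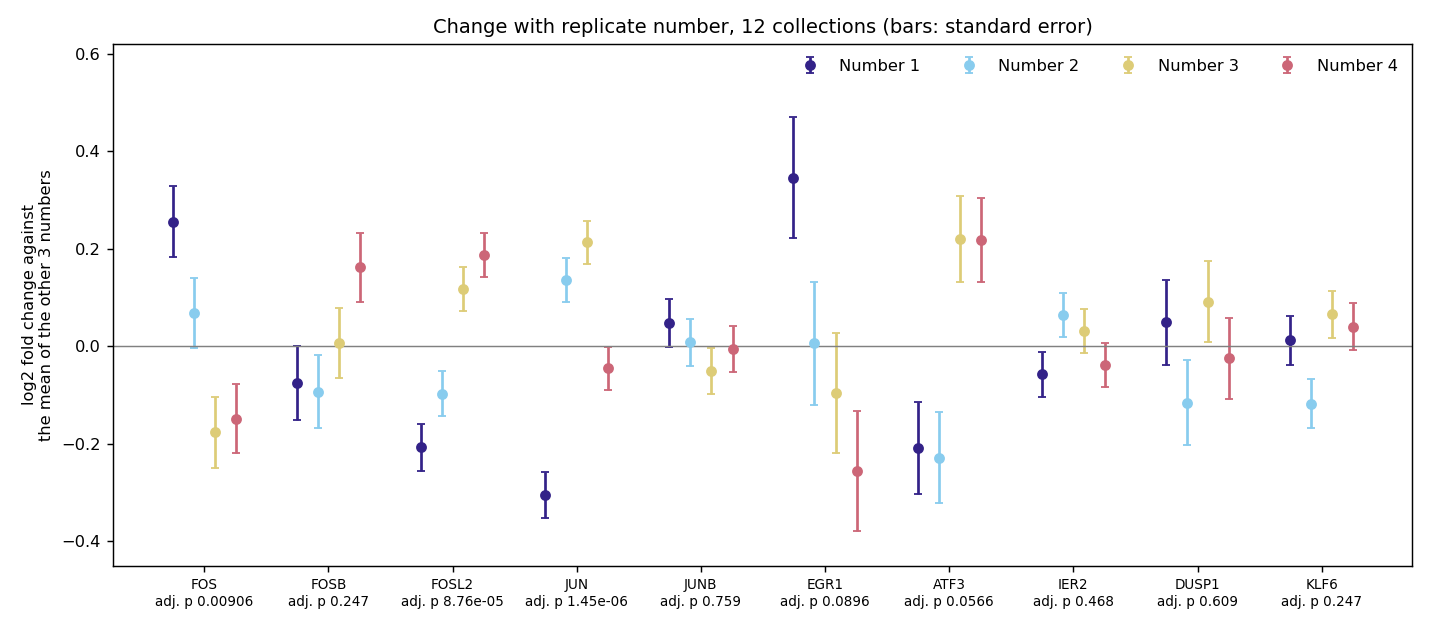
Log2 fold change of each replicate number against the mean of the other 3 (vertical axis), by member, from 12 collections. Points are estimates, bars standard errors and colours numbers, with the adjusted p of the F test under each name. *JUN* and *FOSL2* lie below 0 in number 1 (-0.30 and -0.21) and *FOS* and *EGR1* above it (0.26 and 0.35).

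The 2 treatments were also taken apart. In 12 DMSO libraries alone, *FOSL2*, *JUN* and *ATF3* passed (29.0% of genes), and in 12 dTAG-13 libraries alone *FOS*, *JUN* and *JUNB* did (19.4% of genes), so *JUN* was the member called in both. Passing in one set and not in the other was not a test of a difference. DESeq2 called 3 members, *FOSL2*, *JUN* and *ATF3*, and 3350 of all genes tested. The TMM factors given above moved with the numbers, and with library totals alone the calls were *FOS*, *FOSL2*, *JUN*, *ATF3* and *KLF6* (38.6% of genes). Among markers of other cell types, *TP63*, *ACTA2* and *CD68* passed between numbers. The basal list summed to 16.0 to 27.5 CPM in number 1, 19.7 to 23.3 in number 2, 16.6 to 26.2 in number 3 and 16.9 to 24.5 in number 4. The haematopoietic list summed to 15.6 to 26.5, 16.2 to 25.9, 12.5 to 23.1 and 14.98 to 22.96 CPM in the same order, and the part of these markers in the result was not tested.

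Related genes were counted by role. Of 6 other AP-1 genes tested, 3 passed between numbers. *JUND*, the most widely expressed JUN gene, was at -0.21 in number 1, *BATF* at 0.23 and *JDP2*, a JUN-dimerising repressor, at -0.07. The F test over the 4 numbers gave them adjusted p of 0.0103, 0.0721 and 0.0729, which do not test number 1 alone. In number 1 against the other 3, 1 AP-1 gene passed as higher and 1 as lower. Of 15 other immediate early transcription factors, 3 passed. *MYC*, a driver of growth, was higher in number 1 by 0.36 on the log2 scale (SE 0.041), *BHLHE40*, a repressor linked to the circadian clock, by 0.20, and *IER5L* was at -0.22. The counts stand beside the 36.9% of all genes that passed.

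Feedback and RNA decay genes, which end the early response, passed in 10 of 22. *SPRED2*, an inhibitor of the RAS-MAP kinase route, was at 0.34 in number 1 and *DUSP6*, an ERK phosphatase, at 0.50. *ZFP36L1*, which promotes decay of AU-rich mRNAs, was at 0.17 and *BTG1*, an antiproliferative factor, at -0.25 on the log2 scale. The median over the 22 genes was 0.08 in number 1, against 0.01 over all genes tested. Upstream kinases and factors passed in 9 of 24, with *RPS6KA5* (the kinase MSK1) at 0.24, *CREB1* at 0.16, *MAP2K1* at -0.19 and *MAP2K2* at -0.23 in number 1. Cytoskeletal targets of serum response factor and its MRTF partners passed in 5 of 11. *FHL2*, *VCL* and *ACTB* were at 0.28, 0.11 and -0.14 in number 1, and *TAGLN2* at -0.18. In each list genes of both signs passed.

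Among the genes most like *FOS* over the 12 centred collections were *DNAH7*, *TSTD3*, *ABCA12* and *ZNF91*, at mean absolute log2 differences of 0.0328 to 0.0459 against a median of 0.172 over all genes. No member was among them, the nearest being *JUNB* at 0.119. The mean of the 10 members moved little, from -0.024 in number 2 to 0.029 in number 3 on the log2 scale, and was nearest to *CARS2*, *SAP30BP*, *INTS13*, *SPAG9* and *ZNF135* (0.0173 to 0.0199, median over all genes 0.108).

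The second comparison asks whether 90 min of dTAG-13 altered immediate early transcription. No member passed the test of dTAG-13 against DMSO over 24 libraries, where 123 genes (0.551%) passed. That fit had terms for clone and treatment and none for the pairs harvested together. 2 members had an unadjusted p under 0.05, as did 1411 genes. The 10 log2 fold changes lay between -0.22 and 0.10, with a median of -0.022, and 5 were negative. DESeq2 also called 0 of 10, likewise without terms for the pairs. With a term for each pair, *FOSL2* passed (edgeR's quasi-likelihood test, adjusted p = 0.0301), beside 521 genes (2.33%). On simulated counts for 24 libraries the test without pair terms recovered 53.5% of genes changed by 0.25 and 81% of those changed by 0.5 on the log2 scale. Those counts held no differences between clones or collections, and their spread came from a fit with a term for each pair. Recovery in the real libraries, where collections differ, can therefore be lower.

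*FOSL2* had the smallest p. It was at 41.5 to 65.8 CPM in the 12 DMSO libraries (median 55.2) and at 42.8 to 57.0 in the 12 dTAG-13 libraries (median 48.9). The ranges overlapped, and dTAG-13 was the lower library in 10 of 12 pairs with the same clone and number. The log2 fold change was -0.16 (SE 0.058) with an unadjusted p of 0.0111 and an adjusted p of 0.502. With the replicate block, a term for each of the 12 pairs, the fold change was the same at -0.16 and *FOSL2* passed at an adjusted p of 0.0301, as 1 of 10 members beside 2.33% of genes. With the block it no longer passed without Clone 28 (adjusted p = 0.180) or without Clone 35 (0.388), and passed without Clone 39 (0.0904).

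*JUNB* was at 43.8 to 57.0 CPM under DMSO (median 51.0) and at 41.4 to 55.4 under dTAG-13 (median 47.8), a log2 fold change of -0.10 (SE 0.049, adjusted p = 0.752). *EGR1* had the widest estimate, -0.22 (SE 0.12, adjusted p = 0.892), with 5.30 to 9.54 CPM under DMSO and 4.68 to 12.2 under dTAG-13. *IER2* was at -0.09 (SE 0.048, adjusted p = 0.852) and *DUSP1* at -0.07 (SE 0.078, adjusted p = 0.999). *FOS* (0.10, SE 0.088), *FOSB* (0.09, SE 0.068), *ATF3* (0.07, SE 0.088), *KLF6* (0.03, SE 0.047) and *JUN* (0.03, SE 0.068) had positive estimates, none past the threshold. The groups overlapped for every member.

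**Figure D3:**
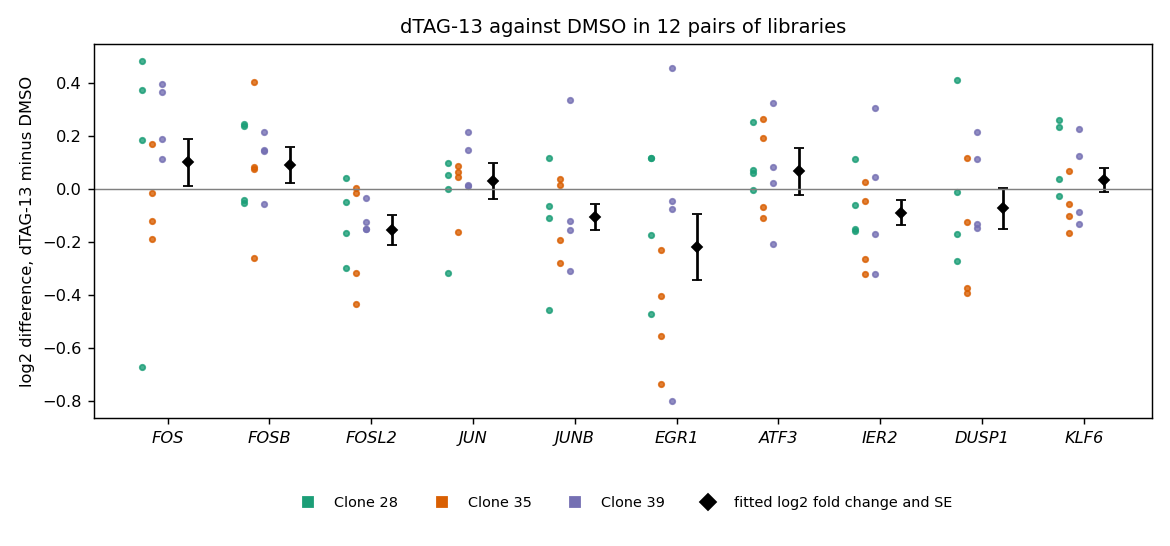
Log2 difference of dTAG-13 minus DMSO (vertical axis) in each of 12 pairs of libraries with the same clone and number, by member. Coloured points are pairs and black diamonds with bars the fitted fold change and its standard error. *FOSL2* lies below 0 in 10 of 12 pairs, and the other members lie on both sides.

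None of the related lists held a gene called by treatment. That was 0 of 6 for AP-1 genes, 0 of 15 for other early transcription factors, 0 of 22 for feedback and RNA decay, 0 of 24 for upstream kinases and factors and 0 of 11 for cytoskeletal targets. As 0.551% of all genes passed, these counts cannot set the lists apart from genes in general. They come from the fit without the replicate block. The medians of these lists lay between -0.045 and 0.0079, against -0.0018 over all genes tested. Among the markers, *KRT19*, a luminal keratin, passed at -0.13 (SE 0.030, adjusted p = 0.0346).

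The response to dTAG-13 was also compared between replicate numbers, in a fit with a term for each pair of libraries. On simulated counts this test made a larger share of false calls than its threshold allows. *IER2* was the 1 member past the threshold, with an adjusted p of 0.0978, beside 2.09% of all genes. Its log2 fold changes were 0.03 (SE 0.078) in number 1, 0.08 (SE 0.073) in number 2, -0.24 (SE 0.071) in number 3 and -0.23 (SE 0.070) in number 4. In numbers 3 and 4 dTAG-13 was lower in 6 of 6 pairs, at -0.32 to -0.15, and in numbers 1 and 2 the pairs ran from -0.061 to 0.31. The call sits at the threshold. It was made in 3 of 12 fits that left out 1 pair and in none that left out a clone (adjusted p = 0.122, 0.670 and 0.571 without Clones 28, 35 and 39).

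*JUNB* had an adjusted p of 0.133 in the same test and a log2 fold change of -0.35 (SE 0.077) in number 3, where its 3 pairs were at -0.46, -0.28 and -0.31. The other numbers were at -0.05, 0.06 and -0.09. *FOSL2* was at -0.04, -0.07, -0.27 and -0.22 in numbers 1 to 4, with an adjusted p for the difference of 0.538. Within number 3 alone *FOSL2*, *IER2* and *JUNB* passed as lower (adjusted p = 0.0289, 0.0553 and 0.00429), 3 of 10 members beside 0.860% of genes lower. Within numbers 1, 2 and 4 no member passed, beside 0.793%, 0.990% and 0.981% of genes in both directions together. Number 3 held more calls over all genes, 192 lower and 367 higher. Numbers 1, 2 and 4 had 85, 80 and 88 genes lower and 92, 141 and 131 higher. These single-number values come from 3 pairs each and from 1 fit. Related lists were counted in the interaction test too, beside the 2.09% of all genes, and the genes below were chosen after their values were seen. Of 15 other immediate early transcription factors 3 passed, *NR4A1* (an orphan nuclear receptor), *IER3* and *IER5*. Of 22 feedback and RNA decay genes 3 passed, *ZFP36* (an mRNA decay factor), *BTG2* (an antiproliferative factor) and *PPP1R15A* (GADD34, which reverses a stress block on translation). No AP-1, upstream or cytoskeletal gene passed. All 6 had positive log2 fold changes in numbers 1 and 2 and negative ones in numbers 3 and 4. How many of the 467 genes called by the interaction had this split of signs was not counted. *PPP1R15A* was at 0.54 (SE 0.12) and 0.60 (SE 0.11), then at -0.19 (SE 0.10) and -0.23 (SE 0.098), with an adjusted p of 3.65e-05. *ZFP36* was at 0.24, 0.28, -0.22 and -0.22 (adjusted p = 5.27e-05), and *NR4A1* at 0.29, 0.21, -0.31 and -0.20 (adjusted p = 0.000268).

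Of these 6 genes, 4 passed without Clone 28, 3 without Clone 35, 3 without Clone 39 and 1, *PPP1R15A*, by DESeq2 (adjusted p = 0.0621). *ZFP36*, *NR4A1* and *PPP1R15A* passed without each clone in turn. Among luminal markers 3 of 8 passed the interaction. *FOXA1* was at -0.12, -0.28, 0.17 and 0.10 in numbers 1 to 4 (adjusted p = 0.000132), *ESR1* at 0.01, -0.03, 0.18 and 0.09 (0.000251) and *GATA3* at -0.12, -0.12, 0.06 and -0.01 (0.00913). The part of these markers in the *IER2* result was not tested.

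The response differed between clones for 0 of 10 members and 0 of 22326 genes (407 at an unadjusted p under 0.05, and 0 by DESeq2).

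**Figure D4:**
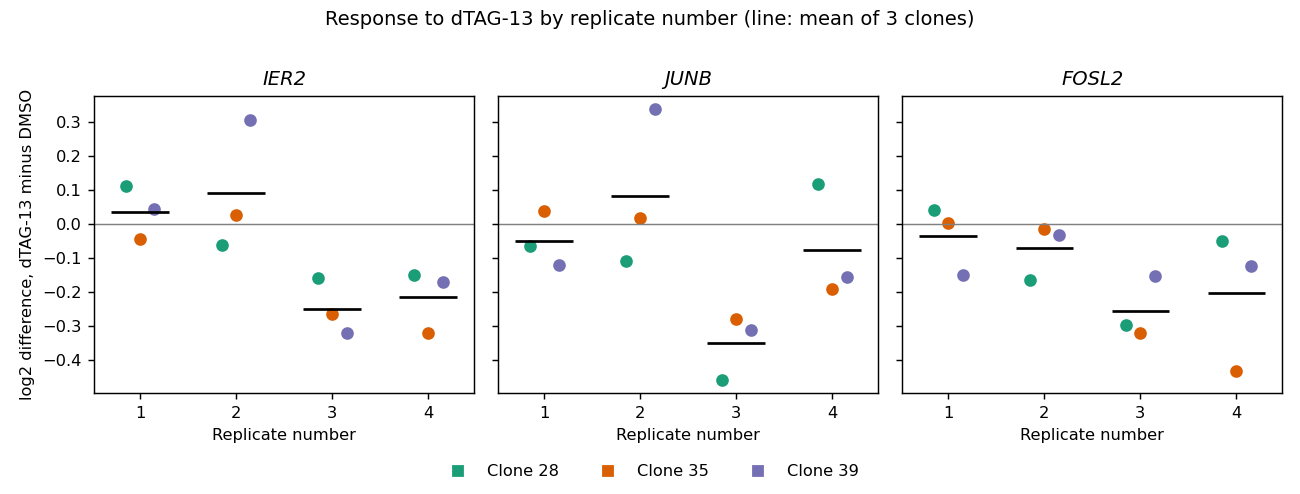
Log2 difference of dTAG-13 minus DMSO (vertical axis) by replicate number for *IER2*, *JUNB* and *FOSL2*. Points are single pairs coloured by clone and black lines the mean of 3 clones. All 6 *IER2* pairs of numbers 3 and 4 lie below 0, and all 3 *JUNB* pairs of number 3 lie at or below -0.28.

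The third comparison describes how far the clones differ. 4 members passed, *ATF3*, *FOSB*, *KLF6* and *FOS*, beside 44.7% of all genes. The largest difference was in *ATF3*, which was lower in Clone 39 by over 0.7 on the log2 scale than in either other clone. *FOSB* was also lower in Clone 39, *KLF6* was higher there than in Clone 35, and *FOS* was higher there than in Clone 28.

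*ATF3* was at 47.8 to 75.6 CPM in the 8 libraries of Clone 28 (median 55.7), 41.3 to 69.8 in Clone 35 (median 55.6) and 29.3 to 37.6 in Clone 39 (median 32.7). All 8 libraries of Clone 39 were below all 16 others, which held for 4.82% of genes. Clone 39 differed from Clone 28 by -0.79 (SE 0.11, adjusted p = 3.88e-06) and from Clone 35 by -0.74 (SE 0.11, adjusted p = 9.71e-06) on the log2 scale, while Clone 35 against Clone 28 did not pass at -0.05 (SE 0.10, adjusted p = 0.841).

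*FOSB* was at 19.8 to 29.1 CPM in Clone 28 (median 23.3), 20.3 to 26.9 in Clone 35 (median 24.1) and 15.7 to 20.2 in Clone 39 (median 17.1). The highest Clone 39 library lay inside the range of Clone 28, and no Clone 39 library reached that of Clone 35. Clone 39 was lower by -0.47 against each of the other clones (SE 0.087 and 0.085, adjusted p = 3.47e-05 and 3.10e-05). *ERCC1*, which holds the *FOSB* span on the other strand, had 9183 counts over all libraries against 2784.

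*KLF6* was at 40.4 to 50.4 CPM in Clone 28 (median 45.6), 36.8 to 44.7 in Clone 35 (median 41.4) and 43.8 to 57.8 in Clone 39 (median 48.4). Clones 35 and 39 overlapped narrowly and differed by 0.25 on the log2 scale (SE 0.058, adjusted p = 0.000663). *FOS* was at 14.2 to 25.8 CPM in Clone 28 (median 17.7), 19.3 to 29.0 in Clone 35 (median 21.3) and 19.6 to 28.6 in Clone 39 (median 21.6). Clone 39 exceeded Clone 28 by 0.29 (SE 0.11, adjusted p = 0.0394), and Clone 35 against Clone 28 did not pass at 0.26 (SE 0.11, adjusted p = 0.136), with an adjusted p of 0.0609 in the test of the 3 clones together.

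**Figure D5:**
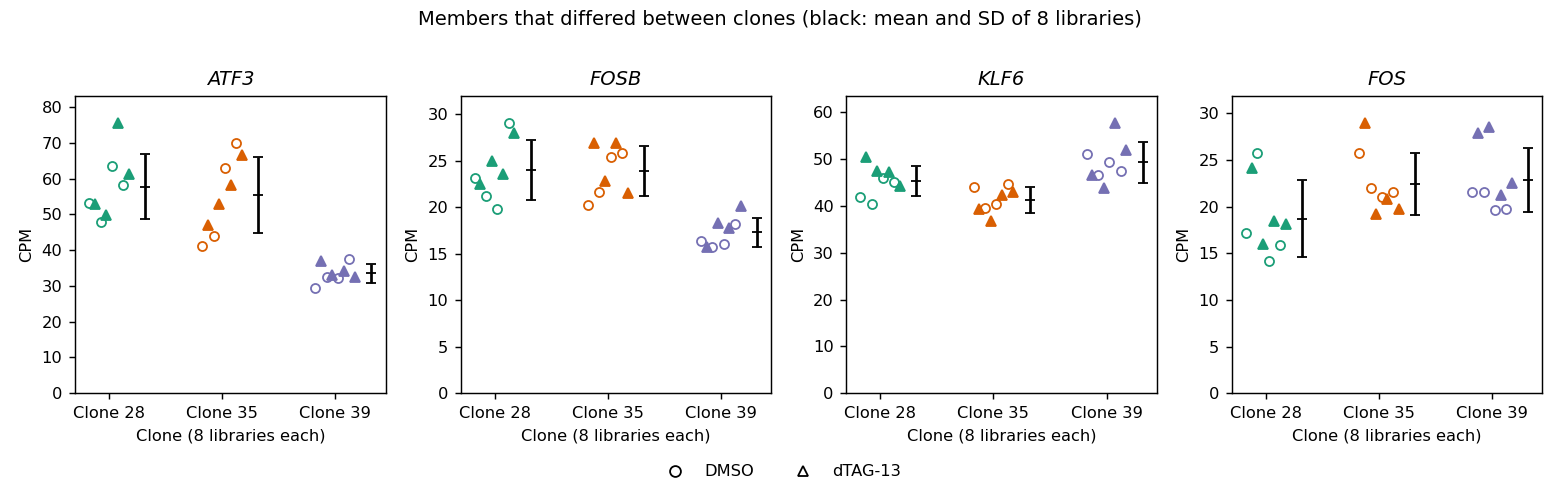
CPM (vertical axes, each from 0) of the 4 members that differed between clones, by clone, with 8 libraries each. Open circles are DMSO, filled triangles dTAG-13, and the black bar gives mean and SD. The *ATF3* libraries of Clone 39 sit at 29.3 to 37.6 CPM, below the lowest other library at 41.3 CPM.

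*ATF3*, *FOSB* and *KLF6* passed in 24 of 24 fits without 1 library and *FOS* in 19 of 24. A fit on the 12 summed collections with the number as a block common to the 3 clones called 7 members (53.8% of genes), as *FOSL2* (adjusted p = 0.00273), *JUN* (0.0319) and *EGR1* (0.0369) were added. That block, like the test of numbers, takes a number to mean the same collection in every clone, which the labels do not state. In DMSO libraries alone *FOSB* and *ATF3* passed (25.5% of genes). *JUNB*, *IER2* and *DUSP1* passed between clones in neither fit, with adjusted p of 0.949, 0.711 and 0.685. Of the related lists, 5 of 6 other AP-1 genes, 5 of 15 early transcription factors, 16 of 22 feedback genes, 11 of 24 upstream genes and 10 of 11 cytoskeletal targets passed between clones in the fit over 24 libraries, in which 44.7% of all genes did. Markers of other cell types passed too, 2 of 2 basal, 1 of 1 fibroblast and 2 of 3 haematopoietic genes tested. The haematopoietic list summed to 20.5 to 26.5 CPM in Clone 28, 19.9 to 25.03 in Clone 35 and 12.5 to 20.6 in Clone 39. The fibroblast list summed to 8.10 to 13.6, 10.7 to 16.7 and 12.2 to 17.5 CPM, and the basal list to 16.9 to 24.8, 21.0 to 27.5 and 16.0 to 22.4 CPM in the same order. Their part in the clone result was not tested.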

How the data were processed

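PRO-seq of 24 libraries was analysed. As the methods and the submitters' processing notes give it, the authors trimmed adapters with cutadapt 1.8.1, removed duplicates by the molecular identifier of the 3′ adapter, removed ribosomal reads, aligned the rest to hg38 with Bowtie2 2.4.4 and SAMtools 1.9 and used bedtools to count per gene. The deposited table holds counts, whole reads per gene and library with no normalization. The annotation they counted on is not given in the sources used here. Of 60605 identifiers, 60463 matched GENCODE release 44, which gave symbols and hg38 coordinates, and overlapping genes were read from its spans.

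Counts were tested in R 4.3.3 with edgeR 4.0.16 (filterByExpr with a minimum count of 10 on the 6 groups, TMM, robust quasi-likelihood F tests), with Benjamini-Hochberg adjustment over 22326 genes and the study's threshold of 0.1. Groups came from the labels. The replicate number was tested on 12 summed collections with clone as a term, treatment and clone in 1 model of both, and the treatment by number interaction with a term for each pair. The number by clone interaction was tested on 24 libraries with terms for clone, number and treatment. CPM use TMM-scaled totals, and log2 levels a prior count of 2. The pairing by number comes from the labels, which have both treatments collected together. Deviations of paired libraries from their group means correlated at 0.0926 to 0.318 over genes. Between replicates, chi-square over its degrees of freedom was 1.64 to 13.6, so replicate spread exceeded counting error. The p-values measure the spread between these libraries, which may be technical.

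On simulated counts with 200 of 22326 genes changed by 0.25 or 0.5 on the log2 scale, the number test recovered 29.5% and 61.5% with 23 and 21 false calls, the treatment test 53.5% and 81% with 6 and 12, the clone test 30.5% and 68.5% with 4 and 6, and the treatment by number test 0.5% and 24.5% with 12 and 14. False calls thus exceeded the share that the threshold allows in the number and interaction tests. Apart from the planted changes, the simulated counts held no differences between clones, collections or treatments. Their spread came from a fit with a term for each pair, so recovery in the real libraries can be lower. Alternatives were another threshold, other scaling, no filter, DESeq2 1.42.0, the replicate block, single treatments and clones, and leave-outs. The leave-outs of a number, and of a clone in the blocked and interaction fits, with DESeq2 for the list genes of the interaction, were added after seeing the data. All 10 members are named, with up to 4 genes of each related list by the smallest p between numbers and any called by treatment. Members and lists were chosen with earlier results of these data known. Signal tracks were not analysed here. A result that the naming rule would give is not reported here.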

Additional observations from a re-analysis of the deposited data

Results flagged for a closer look

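Within groups of 4 replicates, 1 library stood apart from the other 3 in 3 of the 60 groups of member, clone and treatment tested, by Dixon's criterion. Chance flags about 1 in 20 groups, or 3 of 60. *FOS* in Clone 35 under dTAG-13 was at 29.0 CPM in number 1 and at 19.3, 19.8 and 20.8 in the others. *JUN* in Clone 28 under DMSO was at 43.3 CPM in number 1 and at 56.6, 58.5 and 58.9 in the others. *IER2* in Clone 39 under DMSO was at 62.9 CPM in number 3 and at 54.3, 54.7 and 54.9 in the others.

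The response of *IER2* to dTAG-13 differed between replicate numbers at an adjusted p of 0.0978 (edgeR's quasi-likelihood F test of the treatment by number interaction). dTAG-13 was lower in 6 of 6 pairs of numbers 3 and 4, while the 6 pairs of numbers 1 and 2 had both signs. The Clone 39 DMSO library of number 3 named above is part of 1 of those pairs, and the adjusted p was 0.151 without that pair.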

How the results depend on the processing

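The alternatives moved counts of members more than directions. Members called by replicate number went from 5 to 3 at a threshold of 0.05, with DESeq2, with DMSO libraries only and with dTAG-13 libraries only. Members called by treatment went from 0 to 1 with the replicate block, also without Clone 39. Members called by clone went from 4 to 7 with the replicate block and to 2 with DMSO libraries only. The treatment by number call of *IER2* became 0 members at 0.05, with RLE size factors (adjusted p = 0.100), with DESeq2, with no replicate block (0.150) and without Clone 28, 35 or 39, and 2 members with library totals only. The number by clone count went from 0 to 1 with no filter. Without 1 collection, pair, number or library, the counts ranged from 3 to 6 by number, 0 to 0 by treatment, 3 to 5 by clone, 0 to 2 by treatment and number, 0 to 0 by treatment and clone, and 0 to 0 by number and clone. For clones the block was the number, common to the 3 clones, and elsewhere a term for each pair. The replicate block changed no other member call.

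Over all genes, calls by number went from 8232 to 3350 with DESeq2, 4332 with dTAG-13 libraries only and 5163 without Clone 28, and ranged from 5118 to 8201 in the leave-outs. Calls by treatment went from 123 to 64 at a threshold of 0.05, 197 with no filter, and 1, 41 and 47 without Clones 28, 35 and 39. Within Clones 28, 35 and 39 alone they were 5, 0 and 0. With the replicate block they were 521, and 175, 360 and 377 when Clone 28, 35 or 39 was also left out. They ranged from 20 to 151 in the leave-outs. Calls by clone were 5687 in DMSO libraries and ranged from 9508 to 9997 in the leave-outs. Treatment by number calls went from 467 to 297 at 0.05, 43 with DESeq2, and 105 and 263 without Clones 35 and 39 (277 to 524 in the leave-outs). Treatment by clone calls were 6 with no filter and 1 with the block, and number by clone calls 70 with no filter and 1 with DESeq2 (0 to 97 in the leave-outs).

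Estimates that changed sign were small and not past the threshold. In DMSO libraries *JUNB* number 3 was 0.12 and *IER2* number 2 -0.054, and in dTAG-13 libraries *DUSP1* number 2 was 0.021. For treatment, *KLF6* was -0.011 without Clone 28 (-0.012 with the block) and -0.055 in Clone 35, *JUN* -0.030 in Clone 28 and -0.0044 without Clone 39 (-0.0084 with the block), *FOS* -0.020 in Clone 35 and *DUSP1* 0.00043 in Clone 39. The *JUNB* difference of Clone 39 and Clone 35 ranged from -0.062 to 0.0039 in the leave-outs. The causes were not tested. At 15 to 70 reads per library, *EGR1* is limited most by depth.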
